A study of Mus musculus with 12 samples.

Results

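The NRF2 antioxidant response was followed through 10 genes in the livers and tumors of mice fed with or without tryptophan (Trp). The members are Nfe2l2, which encodes NRF2, its inhibitor Keap1, and 8 genes known as NRF2 targets: Hmox1, Gclc, Gclm, Srxn1, Txnrd1, Gsr, Slc7a11 and G6pdx. They were chosen by symbol as a known pathway, with earlier results of these data known, and each has a row among the 24062 genes counted in all 12 libraries. The study asked how dietary Trp feeds MYC-driven liver tumors. Each library is 1 mouse, with 3 mice in each of 4 groups. The first 2 groups are livers of male FVB mice with LAP-tTA and TRE-MYC. LAP is a liver promoter that drives the tTA activator, and MYC was switched on in all of them by withdrawing doxycycline at birth, so the controls carry the active transgene too. The control diet went to mice 101, 102 and 103, and for 21 days mice 105, 107 and 108 ate a diet without Trp (No-Trp), while the controls ate theirs for as long. The other 2 groups are tumors of HCC53N cells grown under the skin of immunodeficient NOD SCID females, written NOD-SKID in the labels. Mice 40, 41 and 43 were on the control diet and mice 35, 36 and 37 on the No-Trp diet, also for 21 days. HCC53N is a single mouse liver tumor line without p53 and with mutant NRAS. The labels give its genotype as FVB MYC ON as well, and the labels give no age for the mice on the diets. All the diets also held the food antioxidant TBHQ, which is known to activate NRF2, so this agent was shared by the groups.

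NRF2 is a transcription factor that KEAP1 holds in the cytosol and passes to the proteasome. Oxidants and electrophiles modify cysteines of KEAP1, after which NRF2 accumulates, pairs with a small MAF protein and binds antioxidant response elements in its target genes. NRF2 is regulated mainly at the protein level, which RNA counts do not measure. In the liver its targets supply glutathione, reduce thioredoxin, make NADPH and clear foreign compounds, and liver cancers often carry mutations that keep NRF2 active.

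Promoter windows from RefSeq (GRCm38.p6) were at hand for 7 of the 10 members, as 9 windows of 250 bases before a transcription start. Hmox1, Gclc and Gsr had none. The windows were searched on both strands for the core of the antioxidant response element (TGACNNNGC), for the core bound by AP-1 and NF-E2 factors (TGAGTCA) and for the amino acid response element read by ATF4 and C/EBP factors (TGATGNAA). These letters occur in 10.2%, 4.46% and 3.45% of all 32851 windows of this length. The antioxidant core was found in windows of Nfe2l2, Gclm, Txnrd1 and G6pdx, the AP-1 type core in that of Srxn1, and the amino acid element in that of Slc7a11, while the window of Keap1 held none of these letters. Srxn1, which rose in the livers, G6pdx, which fell there, and Slc7a11, whose level set the models furthest apart, are shown with the matches in capitals.
Srxn1 (chr2:152105274-152105523, plus strand): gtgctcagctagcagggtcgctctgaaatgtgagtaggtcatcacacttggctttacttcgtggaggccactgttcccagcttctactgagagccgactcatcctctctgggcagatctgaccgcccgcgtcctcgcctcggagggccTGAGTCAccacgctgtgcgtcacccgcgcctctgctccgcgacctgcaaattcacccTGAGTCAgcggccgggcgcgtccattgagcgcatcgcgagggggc
G6pdx (chrX:74428881-74429130, minus strand): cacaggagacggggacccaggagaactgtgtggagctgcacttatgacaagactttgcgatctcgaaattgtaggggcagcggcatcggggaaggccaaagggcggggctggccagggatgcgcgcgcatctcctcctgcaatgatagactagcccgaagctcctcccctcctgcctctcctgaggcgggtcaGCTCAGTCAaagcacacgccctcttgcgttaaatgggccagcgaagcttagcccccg
Slc7a11 (chr3:50443614-50443863, minus strand): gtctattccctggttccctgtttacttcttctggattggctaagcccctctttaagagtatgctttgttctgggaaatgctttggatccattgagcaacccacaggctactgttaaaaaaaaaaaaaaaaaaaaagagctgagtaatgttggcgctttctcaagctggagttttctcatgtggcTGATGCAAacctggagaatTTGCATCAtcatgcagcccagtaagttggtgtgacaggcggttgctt
The Srxn1 window held the AP-1 type core in 2 places, 96 to 102 and 39 to 45 bases before the start. The match nearer the start is followed by GC and reads TGAGTCAGC, which differs from TGACNNNGC only by G in place of C. The search did not count this form as an antioxidant core. In the G6pdx window the antioxidant core lay on the opposite strand, 49 to 57 bases before the start. The Slc7a11 window held the amino acid element in both orientations, 59 to 66 and 40 to 47 bases before the start. These are matches of letters and say nothing about whether a factor was bound.

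Between 14660963 and 26085349 reads were counted on genes per library. Levels are given as counts per 1000000 counts of the library (CPM), scaled with TMM factors, which correct for differences in RNA composition and ranged from 0.685 to 1.22. The ribosomal RNA precursor Rn45s took 12.1% of the counts in control liver 101, 2.22% in control liver 102 and at most 0.758% elsewhere. Livers 101 and 108 and control xenografts 41 and 43 carry a resubmission mark in their file names, and control xenograft 40 is named in another pattern. Hepatocyte markers were present in all livers but low in the xenografts. The summed level of the 10 markers was 731 to 2282 CPM in xenografts, against 12070 to 130400 CPM in livers. Ass1 was at 0 in the xenografts, but in livers it also had too few reads to be tested. The xenografts expressed cholangiocyte-type markers such as Krt19 and Spp1 instead (2944 to 10800 CPM in sum, against 87.1 to 168 CPM in livers). In bulk tissue, fewer cells of a type cannot be told apart from less RNA per cell.

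In MYC-ON livers Gclc and Srxn1 were higher and G6pdx was lower on the No-Trp diet, while the other 7 members did not pass the test. The study reports that livers on this diet were lighter and held fewer and smaller tumors. It also reports less MYC transgene expression in them and a profile closer to that of normal livers. The liver comparison may therefore also set tissue with more tumor against tissue with less. The part of this in the changes was not tested. Gclc makes the catalytic subunit of the enzyme that limits glutathione synthesis, Srxn1 repairs overoxidized peroxiredoxins, and G6pdx starts the pentose phosphate pathway, a main source of NADPH. Calls come from edgeR's quasi-likelihood test, with the threshold on p set at 0.05 after Benjamini-Hochberg adjustment across every gene tested. By this rule 2 of 10 members were higher and 1 was lower, against 13.3% of all 14122 genes higher and 12% lower. All 3 also passed the fold threshold that the study added, a log2 change of at least 1, as did 16.5% of all genes in either direction. The groups of 3 did not overlap for 7 members, 5 higher and 2 lower on No-Trp, against 48.6% of all genes. The members' median log2 change was 0.41, beside -0.0031 for all genes tested.

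**Figure D1:**
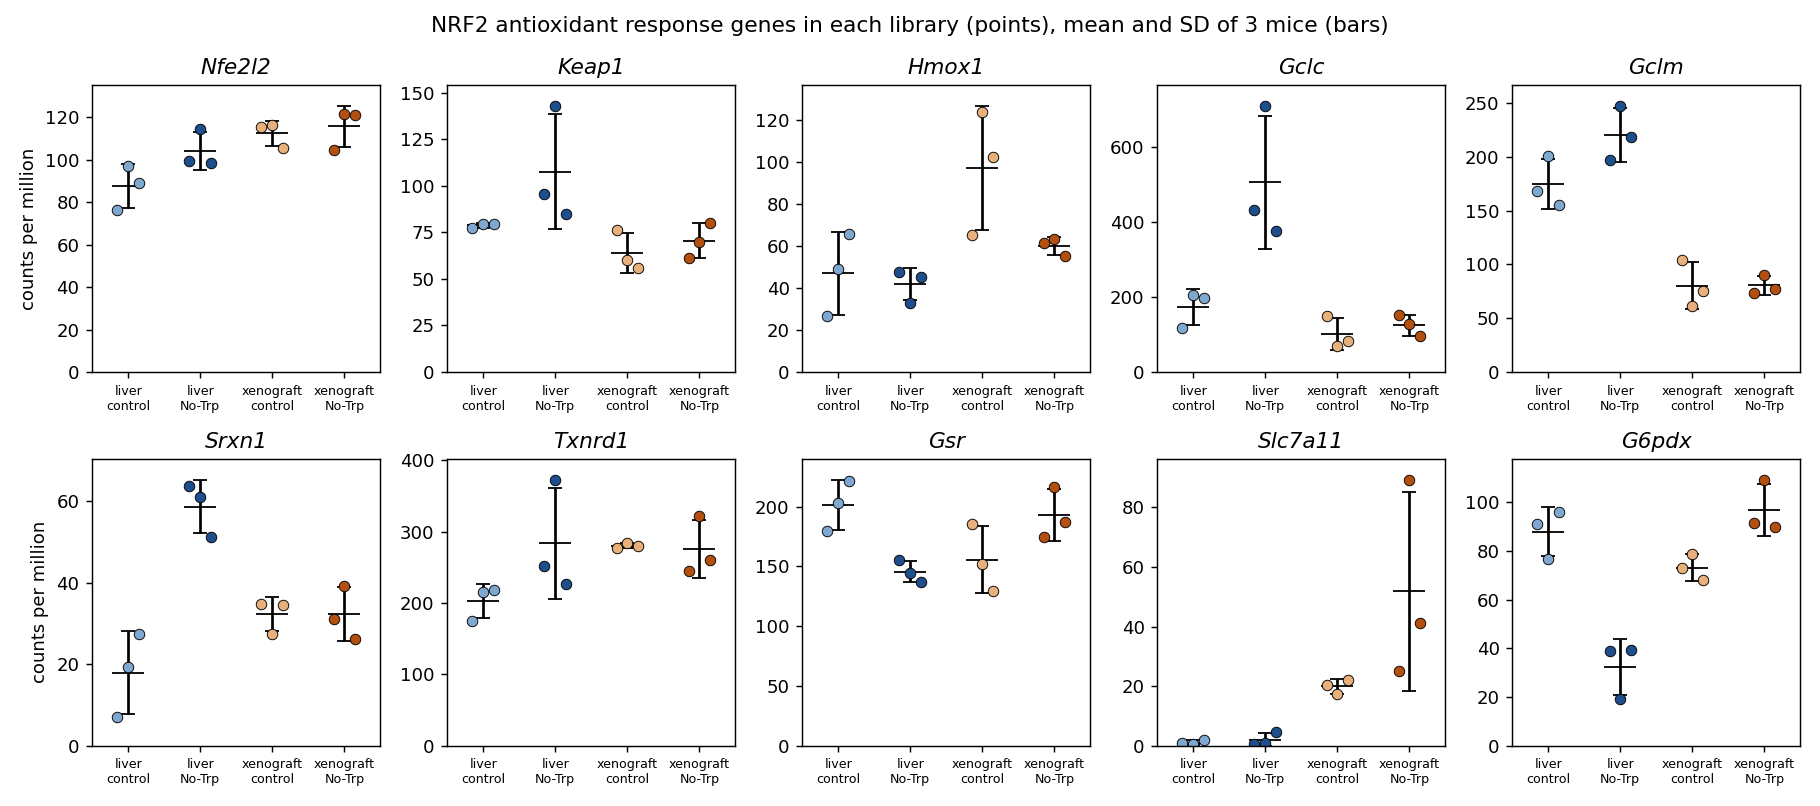
CPM of the 10 genes in each library (points) by model and diet, with the mean and SD of 3 mice (bars). Gclc and Srxn1 were highest in the No-Trp livers, G6pdx was lowest there, and Slc7a11 stood near the axis in every liver.

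Nfe2l2 and Keap1, the sensor pair, did not pass the test in either model. Nfe2l2 (chr2:75675513-75704663, minus strand) was at 76.5, 96.8 and 89.2 CPM in control livers and 99.3, 114 and 98.4 CPM in No-Trp livers. All No-Trp livers lay above all controls, but by less than the test required (log2 change 0.27 ± 0.15 SE, edgeR adjusted p = 0.228, 95% interval -0.09 to 0.63). In the xenografts it was at 115, 116 and 106 CPM on control diet and 105, 121 and 121 CPM on No-Trp, and the groups overlapped. Keap1 (chr9:21229730-21239332, minus strand) was at 77.4, 79.4 and 79.3 CPM in control livers, a spread of 1.15 CPM (SD), and at 95.3, 143 and 84.8 CPM in No-Trp livers. The No-Trp mean was pulled up by liver 107, and the change did not pass the test (0.47 ± 0.21, adjusted p = 0.141). Xenograft levels of Keap1 were 76.3, 59.9 and 55.8 CPM on control diet and 61.4, 69.6 and 80.2 CPM on No-Trp, again overlapping.

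Of the glutathione synthesis enzyme, the catalytic subunit passed the test in livers and the modifier subunit did not. The difference between them was not tested. Gclc (chr9:77754535-77794489, plus strand) was at 118, 206 and 197 CPM in control livers and 433, 709 and 377 CPM in No-Trp livers. The lowest No-Trp liver was well above the highest control, and the rise was 2.95-fold (95% interval 1.72 to 5.03; log2 change 1.56 ± 0.33, edgeR adjusted p = 0.0236). Gclm (chr3:122245487-122267215, plus strand), the modifier subunit of the same enzyme, was at 168, 200 and 155 CPM in control livers and at 197, 247 and 218 CPM in No-Trp livers. These groups overlapped, and the log2 change was 0.35 ± 0.17 (adjusted p = 0.163). In the xenografts Gclc was at 149, 70.1 and 82.1 CPM on control diet and at 152, 129 and 95.6 CPM on No-Trp. Control tumor 40 was nearly as high as the highest No-Trp tumor, and the groups overlapped. Gclm in the tumors ranged from 61.3 to 104 CPM on control diet and from 73.8 to 90.2 CPM on No-Trp.

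Slc7a11 (chr3:50364936-50499087, minus strand) encodes the cystine carrier of system xc-, which brings in cystine for glutathione, and it is also a known ATF4 target. It was nearly silent in livers, at 0.82, 0.51 and 1.88 CPM on control diet and 0.69, 1.05 and 4.58 CPM on No-Trp, from 9 to 59 reads. Its highest liver was 108, the marked No-Trp library, and the liver change was not resolved (log2 change 0.94 ± 0.81, adjusted p = 0.417). In control tumors it was at 20.2, 17.4 and 22.2 CPM, and in No-Trp tumors at 25.1, 89.2 and 41.2 CPM. All No-Trp tumors were above all control tumors, tumor 36 most of all. The log2 change was 1.37 ± 0.43 and did not pass in edgeR (adjusted p = 0.192), while it passed in DESeq2 (adjusted p = 0.0143). Without tumor 36 the log2 change was 0.73.

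Between Srxn1 and Txnrd1, the members of the thioredoxin branch, Srxn1 had the larger log2 change in livers. Srxn1 (chr2:152105524-152111376, plus strand) was at 7.09, 19.4 and 27.5 CPM in control livers and at 63.8, 61.1 and 51.4 CPM in No-Trp livers. The control livers were spread 3.87-fold, the No-Trp livers lay close together, and the rise was 3.29-fold (95% interval 1.59 to 6.83; log2 change 1.72 ± 0.45, edgeR adjusted p = 0.0349). The lowest control was liver 101, the marked library in which Rn45s was highest. Without it the log2 change was 1.34 (adjusted p = 0.0497). The call was lost without control liver 103 or No-Trp liver 105, 107 or 108 (log2 changes of 1.66 to 2.16, adjusted p from 0.0584 to 0.0943) and with library totals (1.38, adjusted p = 0.0776). Tumor levels were 34.9, 27.4 and 34.5 CPM on control diet and 31.3, 39.4 and 26.3 CPM on No-Trp, with no separation of the diets. Txnrd1 (chr10:82833951-82897724, plus strand), the cytosolic thioredoxin reductase, was at 175, 215 and 218 CPM in control livers and 252, 372 and 227 CPM in No-Trp livers. The groups did not overlap, but the change did not pass (0.50 ± 0.23, adjusted p = 0.147). In control tumors Txnrd1 was nearly constant at 277, 283 and 279 CPM, within the No-Trp range of 245 to 321 CPM.

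Gsr and G6pdx, which keep glutathione reduced and supply the NADPH for this, lay lower in every No-Trp liver than in any control liver. Gsr (chr8:33653238-33698162, plus strand), glutathione reductase, was at 180, 203 and 221 CPM in control livers and at 155, 145 and 137 CPM in No-Trp livers. The groups did not overlap, and the log2 change of -0.45 ± 0.15 was just outside the threshold (adjusted p = 0.0679). G6pdx (chrX:74409483-74428880, minus strand) was at 90.9, 76.8 and 96.0 CPM in control livers and at 38.7, 19.1 and 39.4 CPM in No-Trp livers. The fall was to 0.372 of the control level (95% interval 0.234 to 0.59; log2 change -1.43 ± 0.28, edgeR adjusted p = 0.0216). The gene span of Ikbkg covers that of G6pdx, and reads shared by both may have been left out or assigned to either. In the tumors the order was the opposite: G6pdx was at 72.9, 78.6 and 67.9 CPM on control diet and at 91.2, 109 and 89.9 CPM on No-Trp, without overlap. That difference was small (log2 change 0.39 ± 0.14) and did not pass (adjusted p = 0.225). Gsr in tumors was at 185, 152 and 130 CPM on control diet and 175, 217 and 188 CPM on No-Trp.

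Hmox1 (chr8:75093618-75100593, plus strand), heme oxygenase 1, is induced by heme and by NRF2 and repressed by BACH1. It was at 26.4, 49.0 and 65.8 CPM in control livers and at 47.5, 33.1 and 45.2 CPM in No-Trp livers, where the controls enclosed the No-Trp values. In control tumors it was at 65.3, 124 and 102 CPM and in No-Trp tumors at 61.5, 63.4 and 55.4 CPM. The tumor groups did not overlap, though tumor 40 was close to the No-Trp range. The log2 change in tumors was -0.70 ± 0.22 (95% interval -1.21 to -0.20), and it did not pass over all genes (edgeR adjusted p = 0.18).

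In the HCC53N xenografts none of the 10 members was called by edgeR, where 0.245% of 14704 genes were higher and 0.129% lower, and 0.36% were called with the fold threshold. At an unadjusted p under 0.05 there were 3 members (Hmox1, Slc7a11 and G6pdx), against 16.9% of all genes. DESeq2 called 1, Slc7a11, and the share of all genes it called is not given. The groups did not overlap for 3 members, against 22.5% of all genes. The median log2 change was 0.079 over the members and -0.0045 over all genes. For Srxn1 the 95% interval of the tumor change was -0.45 to 0.42, and for Nfe2l2 -0.28 to 0.34, so a 2-fold change of either lay outside these intervals. For Gclc the interval was wider, -0.38 to 0.99.

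**Figure D2:**
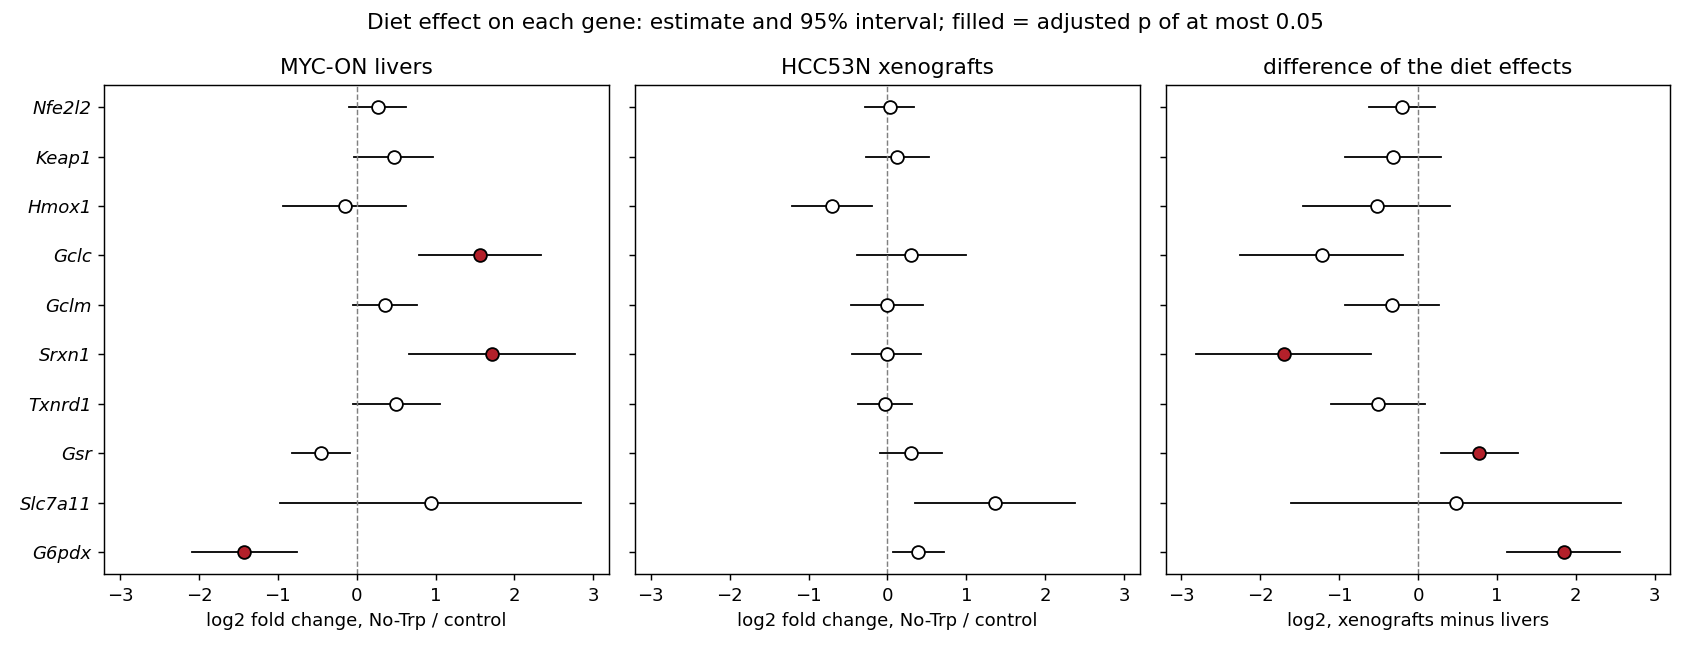
Log2 fold change of each member on the No-Trp diet in livers (left) and xenografts (middle), and the difference of these changes, xenografts minus livers (right), with 95% intervals from edgeR. Filled points have an adjusted p of at most 0.05. In livers these were Gclc, Srxn1 and G6pdx, in xenografts there were none, and the difference was called for Srxn1, Gsr and G6pdx.

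Whether the diet acted differently in the tumors was tested with the interaction term over all 12 libraries. Model, host strain, sex, site and tissue differ together, so they cannot be told apart. The change of G6pdx in xenografts exceeded that in livers by 1.85 ± 0.33 on the log2 scale (edgeR adjusted p = 0.00837), and that of Gsr by 0.78 ± 0.22 (adjusted p = 0.0381). For Srxn1 the difference was -1.70 ± 0.51 (adjusted p = 0.0426). Thus 2 of 10 members had a higher change in xenografts, against 8.25% of 15472 genes, and 1 had a lower change, against 7.39%. The difference for Gclc, -1.22 ± 0.47, did not pass (adjusted p = 0.0965), but it passed with the resubmission mark as covariate (-1.69, adjusted p = 0.0126) and in DESeq2 (-1.33, adjusted p = 0.046). When single libraries were left out, G6pdx kept its call in 12 of 12 fits, Gsr in 3 (adjusted p up to 0.0986) and Srxn1 in 2 (adjusted p up to 0.0933), with the direction kept throughout. Gsr also lost it with RLE factors (adjusted p = 0.0595) and with the resubmission mark as covariate (0.62, adjusted p = 0.0695), and Srxn1 with library totals (-1.28, adjusted p = 0.13). Among the unmarked libraries all 3 missed the threshold.

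On control diet, the xenografts had more Slc7a11, Hmox1 and Nfe2l2 RNA than the livers, and less Gclm. Slc7a11 was 18.1-fold higher (95% interval 6.0 to 54.6; edgeR adjusted p = 0.000447), and Hmox1 was higher by 1.04 ± 0.30 on the log2 scale (adjusted p = 0.0108). Nfe2l2 differed by 0.36 ± 0.14 (adjusted p = 0.0365) and Gclm by -1.12 ± 0.20 (adjusted p = 0.00038). In this comparison 30.8% of all genes were higher and 28.7% lower in xenografts, so the 3 and 1 of 10 members are shares at or below the background. On No-Trp, where 33.2% of genes were higher and 26.4% lower, 3 members were higher in xenografts (Slc7a11, G6pdx and Gsr) and 3 lower. The lower ones were Gclc (log2 difference -2.01 ± 0.34, adjusted p = 0.000336), Gclm (-1.46 ± 0.20) and Keap1 (-0.61 ± 0.20, adjusted p = 0.0186). Leaving out single libraries, the calls of Slc7a11, Gclm, Gclc and G6pdx held in 12 of 12 fits, while Nfe2l2 kept its call in 6, Hmox1 in 11, Keap1 in 10 and Gsr in 4. Both comparisons hold livers and tumors also used for the diet effects.

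Ordered by mean CPM, the No-Trp livers stood first for Keap1, Gclc, Gclm, Srxn1 and Txnrd1, and last for Gsr, G6pdx and Hmox1. For Gclc and Keap1 they were separate from the next group, the control livers, and for Srxn1 from the next, the No-Trp xenografts, whereas for Gclm and Txnrd1 they overlapped with the next. For G6pdx the No-Trp livers were separate from the control xenografts above them, while for Gsr and Hmox1 they overlapped with the group above. For Slc7a11 the No-Trp xenografts were separate from the control xenografts, these from the No-Trp livers, and both liver groups overlapped. Nfe2l2 was highest in the xenografts, with the No-Trp livers overlapping the control xenografts and separate from the control livers.

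Divided by transcript length (CPM per kilobase, longest RefSeq-matched transcript), the members could be compared with each other. In control livers the highest levels per length were those of Gsr (75.4 ± 7.82, SD, n = 3), Txnrd1 (55.9 ± 6.7) and Gclc (50.8 ± 14.2), and the lowest were Srxn1 (6.39 ± 3.65) and Slc7a11 (0.116 ± 0.078). In No-Trp livers Gclc led with 148 ± 51.9 per kilobase, ahead of Txnrd1 with 78.3 ± 21.4. In control xenografts Txnrd1 (77.3 ± 0.942) and Hmox1 (61.8 ± 18.8) were highest, and Gclm was at 14.4 ± 3.89.

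Beyond the members, a list of 37 other known NRF2 targets was followed. Of the 36 tested in livers, 19 were higher and 2 lower on No-Trp, with a median log2 change of 1.34. List counts of the main edgeR fit in livers are to be read beside 13.3% of all genes higher and 12% lower. The median over all genes there was -0.0031. Counts of that fit in xenografts are to be read beside 0.245% and 0.129%, with 16.9% at an unadjusted p under 0.05. Counts by DESeq2 or another fit have no share of all genes beside them, so they are not read as more than the background. Nqo1 encodes a quinone reductase often used to read out NRF2. The study treats NQO1 as a target of another factor, the aryl hydrocarbon receptor (AHR), so it does not read out NRF2 alone. Which factor had a part in its values was not tested. Nqo1 was at 1.78, 2.59 and 1.28 CPM in control livers and at 15.2, 19.4 and 29.0 CPM in No-Trp livers. All No-Trp livers were far above the controls, and the rise was 11.4-fold (95% interval 6.17 to 21.1; log2 change 3.51 ± 0.38, edgeR adjusted p = 0.011). In tumors Nqo1 was at 3.43, 0.558 and 0.792 CPM on control diet and 2.1, 0.8 and 2.16 CPM on No-Trp, where tumor 40 was the highest. Its tumor change was 0.07 ± 0.73, and the difference between the models, -3.42 ± 0.88, was called (adjusted p = 0.0257). That call was lost without control tumor 40, control liver 101 or 103, or No-Trp tumor 36. Entpd5, an endoplasmic reticulum UDPase, rose by 2.38 ± 0.26 in livers on the log2 scale, and the carbonyl reductase Cbr1 by 2.67 ± 0.30. The 2 that fell, named after their values were seen, were the efflux pump Abcc1 (-1.29 ± 0.30) and the glutathione transferase Gsta4 (-0.76 ± 0.15). In the xenografts 1 of 34 tested targets was called, the microsomal glutathione transferase Mgst1. It was at 11.8, 16.8 and 12.6 CPM in control tumors and at 54.3, 39.4 and 42.4 CPM in No-Trp tumors, a rise of 1.71 ± 0.21 on the log2 scale (adjusted p = 0.0206). Without control tumor 43 or No-Trp tumor 37 the rise was 1.65 and 1.76 and missed the threshold (adjusted p of 0.0853 and 0.0617). The call was also lost in the joint fit over all libraries (1.72, adjusted p = 0.0762). Among tumors the resubmission mark falls on control tumors only, and tumor 40 is the only unmarked control. The rise was 1.93 with the mark as covariate and 1.93 among unmarked tumors. Both fits rest on this single control and cannot settle the call. Next in the tumors were Abcc4 (0.78 ± 0.18, adjusted p = 0.106) and Txn1 (-0.42 ± 0.14, adjusted p = 0.187), which did not pass.

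**Figure D3:**
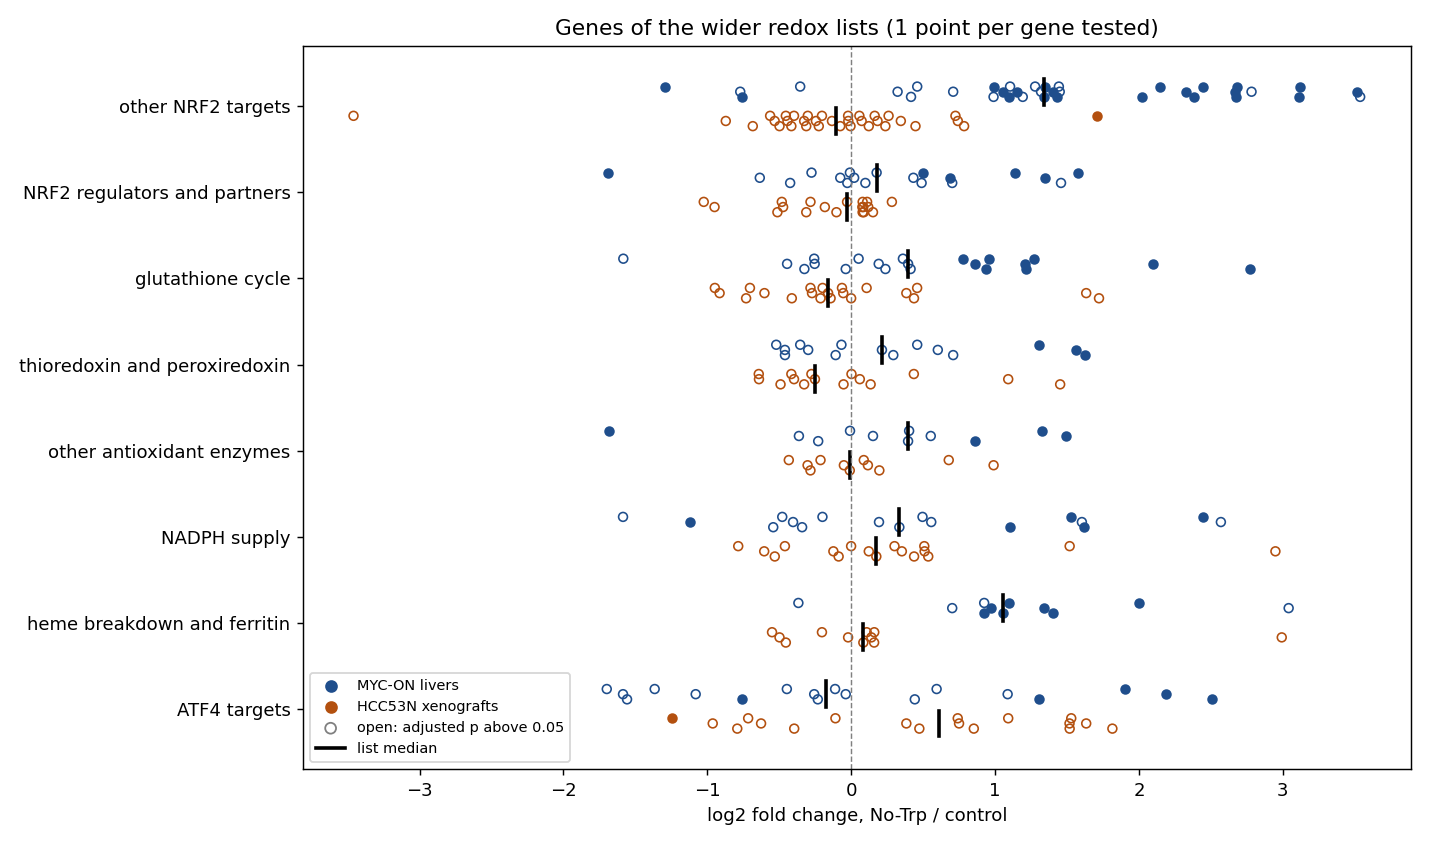
Log2 fold change on the No-Trp diet of each tested gene in 8 redox and stress lists, in livers (blue) and xenografts (orange), with the list median as a black bar; filled points passed an adjusted p of 0.05. The listed NRF2 targets had a median of 1.34 in livers and -0.11 in xenografts.

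Of the 19 regulators and partners of NRF2, 5 rose and 1 fell in livers (beside 13.3% and 12% of all genes), with a median log2 change of 0.18. Nfe2l1, a related factor that drives proteasome genes, rose by 1.14 ± 0.18 (edgeR adjusted p = 0.0168) and Dcaf11, a ubiquitin ligase adaptor, by 1.58 ± 0.29. Palb2, a DNA repair protein that can bind KEAP1, fell by 1.69 on the log2 scale. The others that rose, named after their values were seen, were Sqstm1 (1.35 ± 0.26), which sequesters KEAP1, the partner Mafg (0.69 ± 0.21) and the kinase Gsk3b (0.50 ± 0.15). Sqstm1 is also among the 19 NRF2 targets above. In tumors none passed in edgeR, 5 had an unadjusted p under 0.05 and DESeq2 called 1. The smallest adjusted p were those of Maff (-1.02 ± 0.20, adjusted p = 0.0645), Btrc (-0.51 ± 0.17) and Rbx1 (-0.47 ± 0.17).

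In the glutathione cycle 9 of 21 genes rose in livers (beside 13.3% of all genes), with a median of 0.40. They included the mitochondrial glutathione carrier Slc25a39 (1.27 ± 0.23), the cystathionine lyase Cth (1.21 ± 0.29) and the transferase Gstk1 (2.10 ± 0.51). Of 15 thioredoxin and peroxiredoxin genes 3 rose, a share near the 13.3% of all genes, with a median of 0.21: Sesn2 (1.30 ± 0.22), the methionine sulfoxide reductase Msra (1.63 ± 0.30) and the thioredoxin-binding protein Txnip (1.56 ± 0.42). Txnip inhibits thioredoxin. DESeq2, the fit with the resubmission covariate and the joint fit each called 4 higher and 2 lower of this list. In the xenografts none of either list passed in edgeR, 6 of each had an unadjusted p under 0.05, and DESeq2 called 2 of each. Txnip (1.45 ± 0.24, adjusted p = 0.0506) and Sesn2 (1.09 ± 0.22, adjusted p = 0.0778) came nearest, ahead of Prdx5 (-0.64 ± 0.19). The tumor values of the glutathione genes Gsto1, Glrx5 and Cbs were -0.60 ± 0.15, -0.73 ± 0.20 and -0.95 ± 0.32, with adjusted p of 0.122, 0.137 and 0.209.

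Of 17 other NADPH-supplying genes 4 rose and 1 fell in livers, beside 13.3% and 12% of all genes, with a median of 0.33. Me1, which rose, is also among the 19 NRF2 targets above. DESeq2 called 5 higher and 4 lower, and the joint fit 5 and 3. Cytosolic malic enzyme Me1 (2.44 ± 0.43), isocitrate dehydrogenase Idh1 (1.53 ± 0.27) and the endoplasmic reticulum hexose-6-phosphate dehydrogenase H6pd (1.61 ± 0.42) rose. So did the mitochondrial transhydrogenase Nnt (1.10 ± 0.31), while the pentose phosphate isomerase Rpia fell by 1.12 on the log2 scale. Both were named after their values were seen. In the tumors Aldh1l2 (2.95 ± 0.61), Nadk2 (-0.60 ± 0.17) and Mthfd2 (1.52 ± 0.41) had adjusted p of 0.102, 0.157 and 0.157. None of the list passed in edgeR, 10 had an unadjusted p under 0.05, and DESeq2 called 2.

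Of 11 heme and ferritin genes 7 rose in livers (beside 13.3% of all genes), with a median of 1.06. Ftl1, Fth1, Blvrb and Slc48a1 are among these 7 and also among the 19 NRF2 targets above. Those that rose included Hmox2, the constitutive heme oxygenase (0.97 ± 0.15), the iron exporter Slc40a1 (0.92 ± 0.20) and ferritin light chain Ftl1 (1.34 ± 0.30). Hmox1 is a member and not on this list, and its liver change did not pass. In tumors the haptoglobin gene Hp was at 2.99 ± 0.45 (adjusted p = 0.0506), Ftl1 at -0.45 ± 0.16 and Blvrb at -0.50 ± 0.23, none of them called. At an unadjusted p under 0.05 there were 2 of the list, and DESeq2 called 1. Of 11 other antioxidant enzymes 3 rose and 1 fell in livers, with a median of 0.40 and beside 13.3% and 12% of all genes. Sod1 (1.33 ± 0.28), Gpx4 (0.86 ± 0.24) and, named after its value was seen, Cat (1.5 ± 0.44) rose, and Gpx7 fell by 1.68 on the log2 scale. Gpx4 is also among the 9 glutathione genes. The nearest in tumors were Mt2 (0.68 ± 0.21), Sod1 (-0.43 ± 0.23) and Sod3 (0.99 ± 0.55), with adjusted p from 0.168 to 0.42. No gene of that list was called by edgeR or DESeq2, and 1 had an unadjusted p under 0.05.

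Slc7a11 is also read by ATF4, the factor of the amino acid response, so a list of Atf4 itself and other ATF4 targets was set beside it. Of 18, 4 rose in livers and 1 fell, beside 13.3% and 12% of all genes, and DESeq2 called 5 higher and 5 lower. The liver median was -0.17, with 7 of 18 above 0. Cebpb (1.9 ± 0.27), Atf5 (2.18 ± 0.31) and Sesn2 (1.30 ± 0.22) rose, as did Trib3 (2.50 ± 0.65), while Shmt2 fell by 0.76 on the log2 scale. The last 2 were named after their values were seen, and Sesn2 is also among the thioredoxin genes above. In the tumors the median of the list was 0.61, and 11 of 18 had an unadjusted p under 0.05. There 1 was called by edgeR and 7 by DESeq2, for which the share of all genes is not given. The call of edgeR was that of Cebpb, which fell from 69.8, 76.6 and 71.1 CPM to 28.9, 36.2 and 27.1 CPM (log2 change -1.25 ± 0.16, edgeR adjusted p = 0.0235). Without tumor 41, 43, 35 or 37 its change was -1.16 to -1.26, with adjusted p from 0.0649 to 0.096. The call was also lost with the resubmission covariate (-1.19, adjusted p = 0.157), among unmarked tumors (-1.19, adjusted p = 0.222) and in the joint fit (-1.24, adjusted p = 0.0566). The amino acid carrier Slc7a5 was at 1.52 ± 0.32 (adjusted p = 0.1).

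Cell type markers moved with the liver results. Summed hepatocyte markers were at 13980, 40270 and 12070 CPM in control livers and 63950, 130400 and 55460 CPM in No-Trp livers, and 6 of 9 tested rose. Summed markers of erythroid cells, with the globin rows at or near 0, were at 51.5, 557 and 372 CPM in control livers and at 7.55, 8.3 and 21.0 CPM in No-Trp livers. All 5 tested erythroid markers fell. Macrophage markers overlapped, at 655 to 1028 CPM on control diet and 519 to 1111 CPM on No-Trp, and fibroblast and stellate markers at 702 to 851 CPM and 661 to 878 CPM, though Dcn and Pdgfra rose and Col1a2 fell. Endothelial markers did not overlap, at 104 to 198 CPM and 217 to 353 CPM, with Clec4g and Tek called higher. Adipocyte markers in livers were at 30.8 to 41.8 CPM and 14.6 to 20.6 CPM. Many of these genes, Gclc, Gclm and Nqo1 included, are expressed by hepatocytes. The part of the marker shift and of tumor content in the changes of these genes was not tested. In the tumors endothelial markers were at 55.1 to 136 CPM on control diet and 138 to 224 CPM on No-Trp, with none called by edgeR. Adipocyte markers there were at 11.4 to 66.9 CPM on control diet and 351 to 739 CPM on No-Trp, 2 of 5 passing (Adipoq and Plin1), and their part in the tumor values of Mgst1 was not tested.

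**Figure D4:**
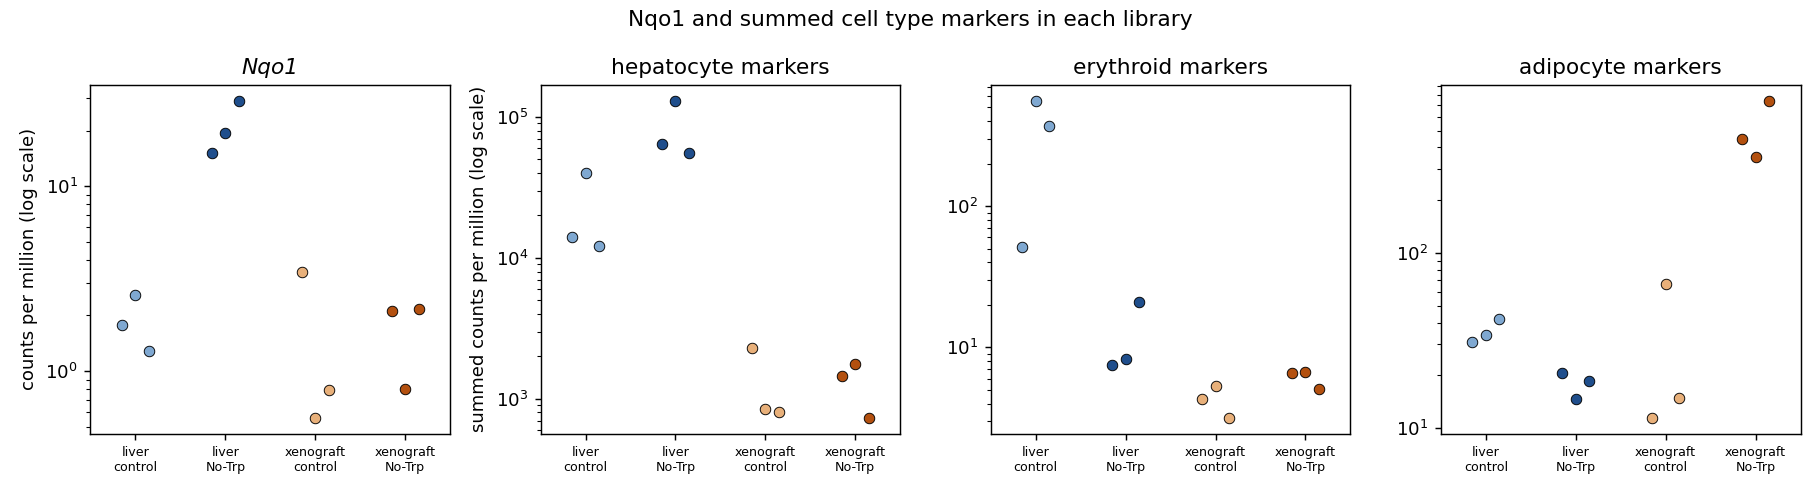
Nqo1 and the summed markers of hepatocytes, erythroid cells and adipocytes in each library (points), in CPM on log axes, by model and diet. The No-Trp livers were above the control livers for Nqo1 and hepatocyte markers and below them for erythroid markers.

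The calls in the livers depended on which mice were included. Without control liver 102 all 3 stood. Without control liver 103 or No-Trp liver 105 none of the members was called, without control liver 101 only Srxn1 was, and without No-Trp liver 107 or 108 the calls of Gclc and G6pdx stood while that of Srxn1 was lost, as given beside its values. The directions of all 3 were kept in each of these fits. Their log2 changes were 1.22 to 1.74 for Gclc, 1.34 to 2.16 for Srxn1 and -1.587 to -1.165 for G6pdx. The share of all genes called in each fit is not given here, so the lost calls are not read as particular to these genes. Among the 4 livers without the resubmission mark the log2 changes were 1.5 for Gclc, 1.41 for Srxn1 and -1.58 for G6pdx, with adjusted p from 0.0923 to 0.0941, and no gene at all was called. The listed NRF2 targets had 4 calls without liver 101 or 105 and none without liver 103, with medians of 1.31, 1.48 and 1.19. The rise of Nqo1 was 3.28 on the log2 scale without liver 103, with an adjusted p of 0.0784. The other 7 lists held no liver call without liver 103 or among the unmarked livers.

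Across the 12 libraries, after centring log2 CPM within each model, the genes most like Nfe2l2 were Ppp6r1 (Pearson r = 0.942), Fam107b (0.935) and Herpud2 (0.934). Those most like Keap1 were Slc39a1 (0.923), Tex2 (0.91) and Ubl3 (0.91). They were picked as the top of 11570 genes with a mean of at least 5 CPM, the libraries share diet and scaling, and the values are a description.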

How the data were processed

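Per the labels and the study's methods, the authors trimmed reads with Trim Galore, aligned them to mm10 with STAR 2.7.2b and counted them per gene with HTSeq, and they deposited raw counts. Strand setting and overlap rule are not given in the sources used here, so counts of overlapping genes are uncertain. Reads that the counting left out (24.7% to 39.4%) were not used.

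R 4.3.3 and edgeR 4.0.16 were used to fit the diet effects in each model separately (TMM, filterByExpr, robust quasi-likelihood, two-sided, Benjamini-Hochberg over all genes), and the interaction and the xenograft against liver contrasts over all 12 libraries. The threshold for a call was an adjusted p of 0.05. The SE is the log2 change divided by the square root of F. Each group holds 3 mice, and an exact test of 3 against 3 cannot go below p = 0.1. Replicate libraries differed by 36.8 to 291 times the counting noise, so none was a duplicate. The lowest count of a member was 9 (Slc7a11), a counting error of 33.3%. Intervals of levels were not computed from counts.

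Alternatives were DESeq2 1.42.0, RLE factors, library totals, 2 other count filters, leaving out Rn45s, the resubmission mark as covariate or only unmarked libraries, one fit over all libraries, and each library left out. On counts simulated for 14122 genes of the liver design, the test called 80% of 4-fold and 10% of 2-fold changes. Only 50 genes were changed at each fold, far fewer than were called in the livers. The adjusted threshold was thus stricter than in the liver data, and these shares do not measure the power there. The members and lists were chosen with earlier results of these data known. By rule, the genes named are the members, Nqo1, up to 3 genes per list and diet comparison with the smallest adjusted p, the 3 most like Nfe2l2 and Keap1, and markers and Rn45s as checks. Others were named after their values were seen, as the text says beside them.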

Additional observations from a re-analysis of the deposited data

Results flagged for a closer look

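The diet effect differed between the models by a test of the difference itself for 4 genes, 3 members and Nqo1. Of all genes, 8.25% had a higher and 7.39% a lower change in xenografts. With single libraries left out, the call held in 12 of 12 fits for G6pdx, 3 for Gsr and 2 for Srxn1. For Srxn1 the difference, xenografts minus livers, was -1.70 on the log2 scale, with 3 of 3 No-Trp livers above all control livers and overlapping tumors. For Gsr it was 0.78, with No-Trp livers below all control livers and overlapping tumors. For G6pdx it was 1.85, with No-Trp livers below and No-Trp tumors above their controls in 3 of 3 mice each. For Nqo1 it was -3.42, with No-Trp livers above all controls and overlapping tumors, and without control tumor 40 it was -2.17 (edgeR adjusted p = 0.0631).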

How the results depend on the processing

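No paired analysis was possible because the groups share no mouse numbers. Of 95 counts of called members under an alternative, 78 equalled the reported count or stayed within 1.5 times of it. Xenograft counts of 0 that stayed at 0 are among these. In the main fits 13.3% of all genes were higher and 12% lower in livers, and 0.245% and 0.129% in xenografts. The shares were 8.25% and 7.39% for the difference, and 30.8% and 28.7% between the models on control diet. Such shares are not set beside the counts under alternatives below. These counts alone therefore do not tell a change in the members from a general gain or loss of calls. In livers 3 members were called, 0 among unmarked libraries and 0 to 3 when a library was left out. In xenografts 0 were called and 1 by DESeq2. For the difference between the models 3 were called, 0 among unmarked libraries and 1 to 3 when a library was left out. For xenografts against livers on control diet 4 were called, 7 with the resubmission mark as covariate, 1 among unmarked libraries and 2 to 6 when a library was left out. Srxn1 in livers lost its call with library totals (adjusted p = 0.0776), and its difference between the models also with no filter on low counts (adjusted p = 0.0522). Gsr in livers passed with library totals, the covariate or a joint fit, with adjusted p from 0.0428 to 0.0491.

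With library totals the median log2 change of all genes was -0.30 in livers and 0.41 in the difference, against -0.0031 and 0.034. With them Nfe2l2 in livers was at -0.045, the differences of Nfe2l2, Keap1 and Gclm were 0.18, 0.10 and 0.050, and Txnrd1 in xenografts against livers on No-Trp was at 0.52 (adjusted p = 0.0248). Among unmarked libraries Slc7a11 in livers was at -0.50, Gclc in xenografts at -0.27 (-0.26 with the covariate) and the difference of Hmox1 at 0.39. Slc7a11 in livers ranged from -0.31 to 1.63 when a library was left out. The cause was not tested. A further 34 changes of sign concerned 8 values smaller than their own SE. On simulated counts the test called 10% of 2-fold changes in the liver design and 34% in the xenograft design. Of the genes it called there, 4.08% in the liver design and 12.3% in the xenograft design had not been changed. For the difference between the models this share was 6.58%. With 50 genes changed at each fold, unlike the data, the simulated shares do not carry over to the real tests.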
